A study of Mus musculus with 2 samples.

Results

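Mural cells are the contractile and supporting cells on the outside of blood vessels. Pericytes sit on capillaries within the basement membrane they share with the endothelium, and vascular smooth muscle cells wrap arterioles in a contractile coat. In the retina pericytes are dense, their survival depends on PDGF-B from the endothelium acting on the receptor PDGFRB, and loss of pericytes is a classical lesion of diabetic retinopathy. Pericytes carry the ATP-sensitive potassium channel made of KCNJ8 and ABCC9 and the G protein regulator RGS5, and smooth muscle cells are marked by alpha-actin (Acta2), smooth muscle myosin heavy chain (Myh11) and transgelin (Tagln).

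Mural cells were chosen from a table of unique molecular identifiers (UMIs, counted RNA molecules) of single retinal cells. A cell had to have at least 800 UMIs, at most 20% of them from mt- genes, at least 5 UMIs summed over Rgs5, Pdgfrb, Kcnj8, Abcc9, Acta2, Myh11 and Tagln (the 7 mural genes), and at most 2 summed over the endothelial genes Cldn5, Cdh5 and Pecam1. The rule took 275 mural cells out of 19562 cells in all, of which 11954 passed the filter on UMIs and mt- genes. The STZ library gave 184 mural cells and the control library 91. Because the 7 mural genes chose the cells, their levels are a description of the members.

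The STZ mice were male C57BL/6J mice made diabetic with streptozotocin, a compound that destroys insulin-producing cells, by intraperitoneal injection of 55 mg/kg when they were 3 to 5 weeks old. Diabetes was defined as blood glucose over 300 mg/dL, and the retinas were taken after 25 weeks of it. Untreated male mice of the same strain served as controls. Each group is 1 10x Chromium 3′ library made from 3 pooled retinas, so there is no replicate, no test was made, and no p-value is given. A level is in CPM, the UMIs of a gene per 1000000 UMIs summed over the mural cells of a library. A ratio is STZ CPM over control CPM with an exact 95% interval, which covers counting error only, treats UMIs as independent and grows too narrow where a gene's UMIs sit in few cells.

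The filter passed 55.7% of 12393 STZ cells and 70.5% of 7169 control cells, and median depth over all cells was 2062 UMIs in the STZ library and 3800 in the control library. No cell in the table had more than 2999 genes. The libraries share 21 cell barcodes, among them that of 1 STZ mural cell. The 3-retina pools and the 2 preparations cannot be told apart from the treatment. In summed RNA, fewer cells that carry a transcript and less of it per cell cannot be told apart.

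STZ mural cells had a median of 3268 UMIs and 1658 genes, against 4182 UMIs and 1900 genes in control mural cells. The median share of mt- UMIs was 10.1% in STZ and 8.46% in control mural cells. The members held 654288 UMIs in the STZ library and 394903 in the control library. No doublet caller was run, and mixed mural and endothelial profiles were left out by the limit on endothelial UMIs, which removed 17 STZ and 24 control cells.

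Most members lay far from the thresholds. The median member had 72 UMIs of the mural genes in STZ (5 to 311) and 101 in control (5 to 372). Just inside the limit, 9 STZ cells and 1 control cell had exactly 5 UMIs, and just outside it, 20 STZ and 7 control cells had 4. On the endothelial side, 176 of 184 STZ members and 90 of 91 control members had no UMI of the 3 endothelial genes. Just outside that limit, 2 STZ cells and 0 control cells had 3 endothelial UMIs, and no member of either library had 2.

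Fewer mural UMIs went with more RNA of neurons in the STZ library. There, 37 of the 184 members had under 20 mural UMIs, and 30 of these 37 had more than 1% of their UMIs from rod and cone genes. In the control library 5 of the 91 members had under 20 mural UMIs, and 0 of these 5 passed 1% rod and cone UMIs. Among members with at least 20 mural UMIs, 11 of 147 STZ cells and 3 of 86 control cells passed 1%. The Müller glia list passed 1% of UMIs in 10 of the 37 STZ cells and in 4 of the 5 control cells under 20 mural UMIs. Results below that rest on rod, cone or glial RNA are therefore given also for the 147 STZ and 86 control members with at least 20 mural UMIs, a limit chosen after the values were seen.

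**Figure D1:**
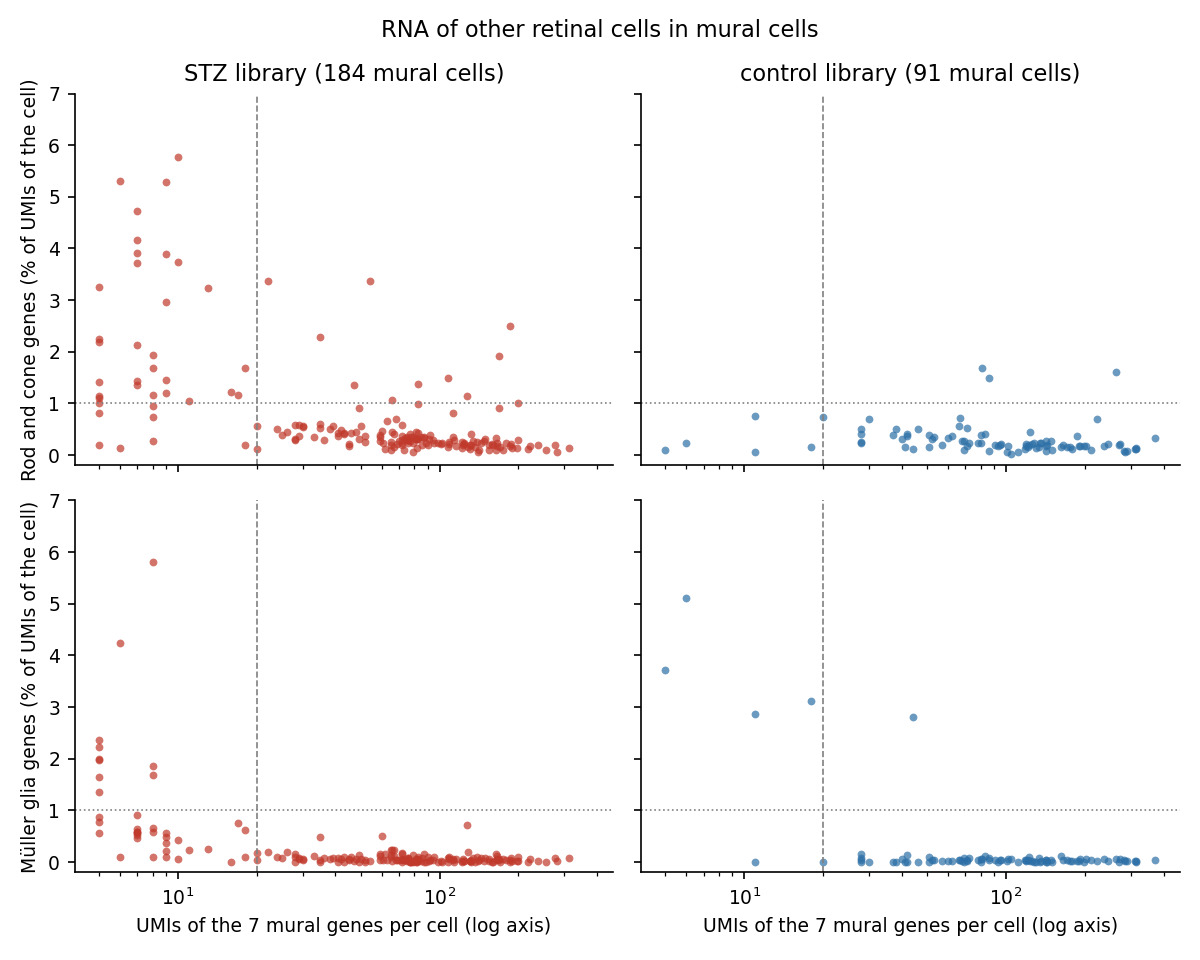
Rod and cone genes (top) and Müller glia genes (bottom) as a percent of each mural cell's UMIs, against its UMIs of the 7 mural genes on a log axis, for STZ (left) and control (right) cells. Each point is a cell, the dashed line is at 20 mural UMIs and the dotted line at 1%. Of the STZ cells left of the dashed line, 30 of 37 lie above the dotted line in the rod and cone panel, against 0 of 5 control cells.

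Genes outside the rule also marked the members as mural. Of the 15 genes with the highest mural level relative to all other filtered cells, 3 were genes of the rule (Myh11, Tagln and Acta2). The other 12 include Tbx18, a transcription factor of mural cells, which had 39 UMIs in STZ and 27 in control mural cells and 1 UMI in all other filtered cells of each library. Ednra, the endothelin receptor that contracts vascular muscle, had 112 UMIs in STZ and 92 in control mural cells, against 6 and 3 in the other STZ and control cells. Enpep, the aminopeptidase that cuts angiotensin II and is a known pericyte gene, had 67 UMIs in STZ and 44 in control mural cells, against 3 and 4 in the other STZ and control cells. Olfr558, an olfactory receptor known from vascular muscle, had 102 UMIs in STZ and 49 in control mural cells, against 2 and 1 elsewhere in the STZ and control libraries. Cysltr2, Aspn, Slc38a11, C1qtnf7, Mustn1, Map3k7cl, Rasl12 and Slc16a12 had 50 to 383 UMIs in STZ and 28 to 286 in control mural cells, and at most 25 in all other cells of a library, which number 6716 in STZ and 4963 in control. These enrichments come from the cells that the rule chose and are no test.

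Markers of other cells were present in the members. Rod genes summed to 4142 CPM in STZ and 2026 CPM in control mural cells, and cone genes to 2195 CPM in STZ and 600 CPM in control. Bipolar genes summed to 1068 CPM in STZ and 273 CPM in control, and to 758 and 279 CPM with at least 20 mural UMIs. In all other filtered cells rod genes stood at 11924 CPM in STZ and 11801 CPM in control. There, cone genes stood at 9653.5 CPM in STZ and 9966.5 CPM in control, and Müller glia genes at 11221 and 14886 CPM. Müller glia genes stood at 2713 CPM in STZ and 2932 CPM in control, and the 15 endothelial genes at 460 CPM in STZ and 423 CPM in control. With at least 20 mural UMIs the rod list stood at 3376 CPM in STZ and 2086 CPM in control, the cone list at 841 CPM in STZ and 620 CPM in control, and the Müller glia list at 683 CPM in STZ and 831 CPM in control. Over all members, the fibroblast list was at 188 CPM in STZ and 263 CPM in control and the pigment epithelium list at 173 CPM in STZ and 53.2 CPM in control. Microglial genes summed to 26 UMIs in STZ and 17 in control, red cell genes to 10 in STZ and 1 in control, and neutrophil genes to 1 in STZ and 0 in control. No gene of the amacrine, melanocyte, red cell or neutrophil lists reached the level at which a gene counted as measured, which was at least 20 UMIs over both libraries and a pooled level of at least 10 CPM.

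Mural cells were 2.67% of filtered STZ cells (184 of 6900, 2.30 to 3.07) and 1.80% of filtered control cells (91 of 5054, 1.45 to 2.21). Endothelial cells taken by the mirrored rule, with at least 5 endothelial and at most 2 mural UMIs, were 1.54% in STZ (106 cells) and 1.13% in control (57 cells). Among mural and endothelial cells together, mural cells made up 63.4% in STZ (57.6 to 69.0) and 61.5% in control (53.1 to 69.4), and these intervals overlap. Cells with at least 20 mural UMIs were 2.13% of filtered cells in STZ and 1.70% in control. The filter on UMIs and mt- genes kept unlike fractions of the libraries. The share of mural cells was 2.29% in STZ and 1.92% in control with at least 500 UMIs per cell, and 2.99% in STZ and 1.86% in control with at least 1500. It was 3.95% in STZ and 2.45% in control with at most 10% mt- UMIs, and 2.10% in STZ and 1.47% in control with no limit on them. The share was higher in STZ under each of these 4 filters, by a log2 ratio of 0.26 to 0.69. The limits of the rule also moved this ratio, which was 0.57 under the rule. With no limit on endothelial UMIs the share was 2.91% in STZ and 2.28% in control (log2 ratio 0.36). With at least 10 mural UMIs it was 2.25% in STZ and 1.76% in control (0.35).

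The 7 mural genes differed little between the libraries. Rgs5 stood at 11206 CPM in STZ and 14512 CPM in control, a ratio of 0.772 (0.746 to 0.799). Acta2 had 3992 CPM in STZ and 4632 CPM in control (0.862, 0.812 to 0.916). Tagln had 3388 CPM in STZ against 4161 CPM in control (0.814), and Myh11 1288 CPM in STZ against 1279 CPM in control (1.01). Pdgfrb, the receptor that binds PDGF-B, had 960 CPM in STZ against 1071 CPM in control (0.896). The channel subunits Abcc9 (899 in STZ, 1089 in control) and Kcnj8 (786 in STZ, 975 in control) had ratios of 0.825 and 0.806. Summed over all members, none of the 7 reached 1.5-fold in either direction.

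The members were split per cell by contractile UMIs (Acta2, Myh11 and Tagln) against pericyte UMIs (Rgs5, Kcnj8 and Abcc9). A cell with more contractile than pericyte UMIs is called contractile-weighted and one with fewer pericyte-weighted. The 2 names are ranges of a score and not cell types. Contractile-weighted cells numbered 52 of 184 STZ members (28.3%, 21.9 to 35.4) and 20 of 91 control members (22.0%, 13.97 to 31.9). Pericyte-weighted cells numbered 129 in STZ (70.1%) and 70 in control (76.9%), and 3 STZ cells and 1 control cell were even. The intervals of the contractile-weighted share overlap. Among members with at least 20 mural UMIs the share was 28.6% in STZ (42 of 147) and 23.3% in control (20 of 86). In pericyte-weighted cells the 3 contractile genes summed to 1635 CPM in STZ and 2641 CPM in control (0.619), with 2 at least 1.5-fold lower. In contractile-weighted cells they summed to 21988 CPM in STZ and 28408 CPM in control (0.774), with 0 past 1.5-fold. These genes also define the ranges, so the values are a description.

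Most cells lay at the ends of the range. The contractile share of split UMIs was under 10% in 104 STZ and 57 control cells, and 70 STZ and 38 control cells had no contractile UMI at all. It was over 90% in 23 STZ and 10 control cells, and 5 STZ and 2 control cells had no pericyte UMI of the split. Near the dividing line, between 40% and 60%, lay 16 STZ and 6 control cells. The STZ cell and the control cell without any split UMI are in these counts. They are also in the counts of cells without a contractile or without a pericyte UMI. Contractile-weighted cells were the deeper ones, with a median of 4411 UMIs in STZ and 5717 in control, against 2943 in STZ and 3596.5 in control pericyte-weighted cells.

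**Figure D2:**
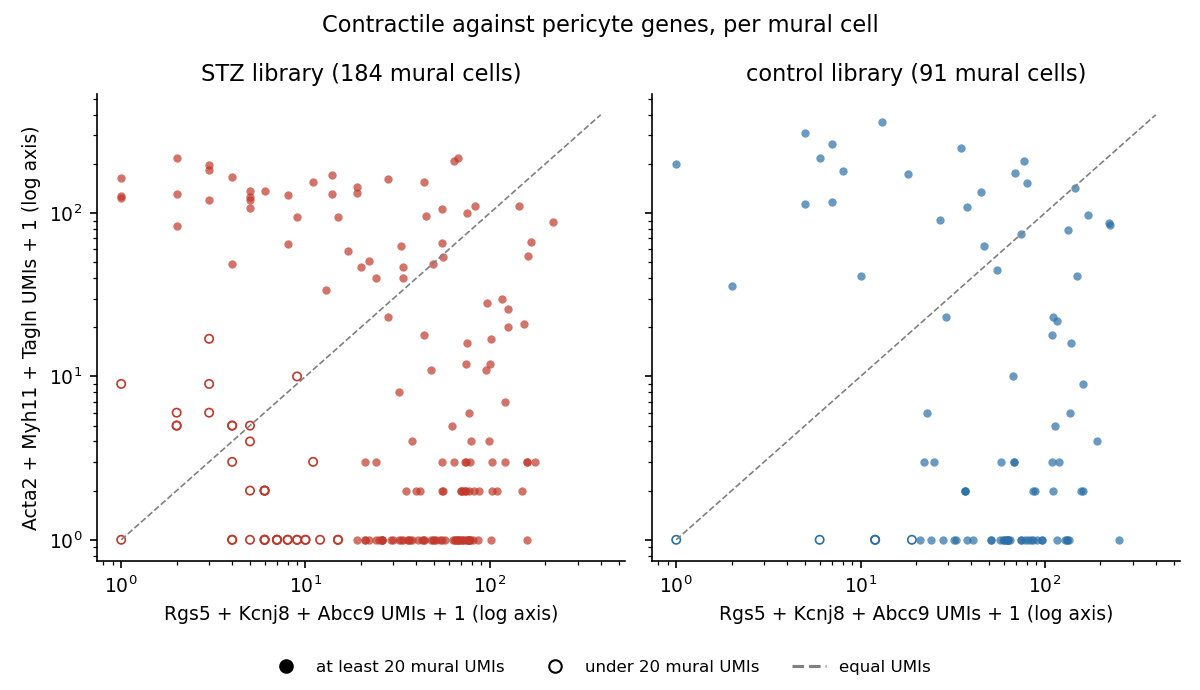
Contractile UMIs (Acta2, Myh11 and Tagln) against pericyte UMIs (Rgs5, Kcnj8 and Abcc9) of each mural cell, both plus 1 on log axes, for STZ (left) and control (right). Filled points have at least 20 mural UMIs, open points fewer, and the dashed line marks equal counts. In both libraries most cells lie on the pericyte side, 129 of 184 in STZ and 70 of 91 in control.

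The split carried other genes with it, in the same direction in both libraries. Of 774 genes measured in both libraries and at least 2-fold above all other cells, 374 passed 1.5-fold between the ranges in the same direction in both (163 toward contractile-weighted and 211 toward pericyte-weighted cells), and 8 passed it in opposite directions. Over all measured genes, 13.1% passed 1.5-fold toward contractile-weighted cells and 25.4% toward pericyte-weighted cells in STZ, and 16.5% and 27.8% in control. The ranges differ in depth, and the part of depth and of other cells' RNA in these shares was not tested. The genes named here for the split have the largest differences and were chosen after their values were seen.

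On the contractile side, phospholamban (Pln), which restrains the calcium pump of the sarcoplasmic reticulum, had 72 UMIs in contractile-weighted and 0 in pericyte-weighted STZ cells. That is 44.7-fold higher at a floor of 3 UMIs over the group, with an interval from 35.4 upward. In control it had 39 UMIs in contractile-weighted cells and 1 in pericyte-weighted cells. Csrp1, a LIM protein of smooth muscle, was 29.7 times higher in contractile-weighted STZ cells (207 against 13 UMIs) and 35.8 times in control (120 against 8 UMIs). Ptgis, which makes the vasodilator prostacyclin, had 31 UMIs against 2 in STZ (ratio 28.9, 7.35 to 249) and 22 against 0 UMIs in control. The control value was 17.5-fold higher at the same floor, with an interval from 13.1 upward. Lmod1, an actin filament nucleator of smooth muscle, was 8.49 times higher in STZ and 8.01 times in control. Npy1r, a receptor for the sympathetic transmitter neuropeptide Y, was 7.66 times higher in STZ and 9.28 times in control. Nkd1, an inhibitor of Wnt signalling, was 25.5 times higher in STZ and 7.37 times in control.

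On the pericyte side, vitronectin (Vtn), an adhesion protein of the matrix and a known pericyte gene, had 72 UMIs in contractile-weighted and 3327 in pericyte-weighted STZ cells, 24.8 times lower in CPM in contractile-weighted cells. In control it had 61 UMIs in contractile-weighted and 2411 in pericyte-weighted cells and was 16.6 times lower. Ifitm1, a membrane protein known from pericytes, was 16.8 times lower in contractile-weighted STZ cells and 32.5 times in control. Plxdc2, a transmembrane receptor, was 24.7 times lower in STZ and 15.2 times in control. Hic1, a transcriptional repressor, was 12.6 times lower in STZ and 19.7 times in control, and Lamc3, a laminin chain, 13.1 times in STZ and 9.64 times in control. Ltbp4, which holds latent TGF-beta in the matrix, had 0 UMIs in contractile-weighted STZ cells, at least 13.1-fold lower, and was 15.1 times lower in contractile-weighted control cells.

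**Figure D3:**
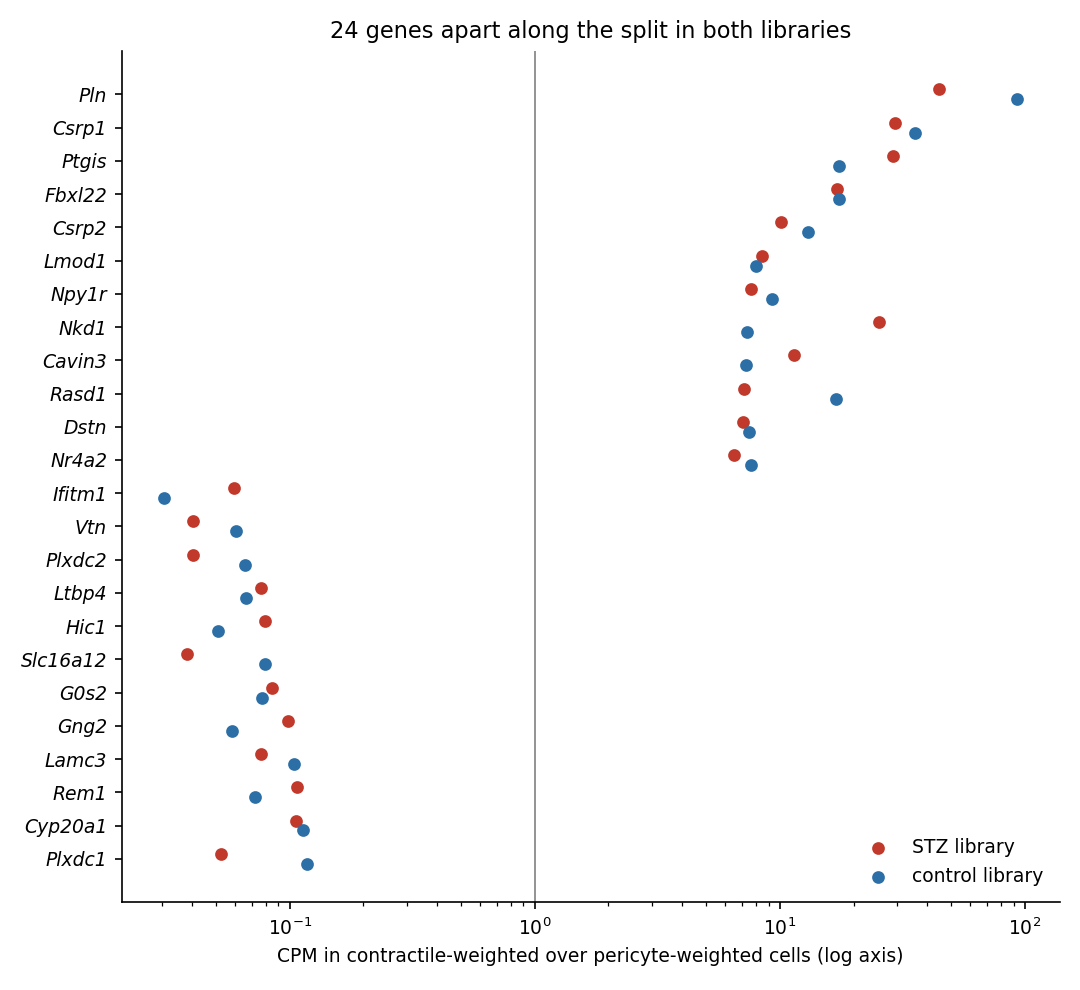
Ratio of contractile-weighted to pericyte-weighted CPM on a log axis for 24 genes outside the rule, with the STZ point above the control point for each gene. Genes with 0 UMIs in a range are drawn at the floor of 3 UMIs. Every gene shown lies on the same side of 1 in both libraries, since the genes were chosen for that.

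Several lists differed along the split. Of the contractile apparatus list, which holds actin-binding, myosin and calcium-handling genes of smooth muscle, 25 of 30 measured genes were higher in contractile-weighted STZ cells (median log2 ratio 1.81) and 20 of 27 in control (1.88). Of the pericyte identity list, 17 of 26 were lower in contractile-weighted STZ cells (median -1.24) and 17 of 25 in control (-1.19). Basement membrane and matrix genes were lower in contractile-weighted cells for 12 of 20 genes in STZ and 11 of 19 in control. Immediate early genes, which respond within minutes to stimulation and to tissue handling, were higher in contractile-weighted cells for 7 of 22 genes in STZ (median 0.24) and 14 of 22 in control (1.01). The Müller glia list was lower in contractile-weighted cells for 9 of 9 measured genes in STZ and 7 of 7 in control. In both libraries the pericyte-weighted level rested largely on cells near the limit of the rule. Over all members the list summed to 2773 CPM in pericyte-weighted STZ cells and 3157 CPM in pericyte-weighted control cells. With at least 20 mural UMIs it summed to 728 CPM in contractile-weighted and 664 CPM in pericyte-weighted STZ cells. In control it then summed to 323 CPM in contractile-weighted and 1059 CPM in pericyte-weighted cells. Of the 86 control cells with at least 20 mural UMIs, 1 passed 1% Müller glia UMIs. That cell was pericyte-weighted, with 2.81% of its 6303 UMIs from the list.

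Serum response factor drives many smooth muscle genes by binding CArG boxes before the gene's start. The promoter of Myl9, the regulatory light chain of smooth muscle myosin, is shown because Myl9 was higher in contractile-weighted cells in both libraries, 2.47 times in STZ and 2.48 times in control, and has such a match. The sequence is from RefSeq on GRCm38.p6, chr2:156775214-156775419 on the plus strand. It covers 206 bases that end before the first base of the 250-base window in an annotated exon. Capitals mark the CArG box, whose first base lies 161 bases before the transcription start used for the table.
Myl9: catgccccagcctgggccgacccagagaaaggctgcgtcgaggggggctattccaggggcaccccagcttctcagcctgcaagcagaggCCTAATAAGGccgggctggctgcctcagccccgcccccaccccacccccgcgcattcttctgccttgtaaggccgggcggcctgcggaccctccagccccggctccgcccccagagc
Across 32851 promoters of 250 bases, searched on both strands, 1.47% held a CArG box and 18.6% held one with at most 1 mismatch. Of the contractile apparatus list 28 of 33 genes were among them, with 33 promoters. Of these 28 genes, 4 had a promoter with a CArG box (Cnn2, Filip1l, Myl6 and Myl9) and 12 had one with at most 1 mismatch. These are counts of genes, while the shares over all are of promoters. Of the 3 contractile genes of the split only Acta2 was among the promoters searched. Its promoter held no CArG box without a mismatch, but held one with 1 mismatch allowed. A match is a run of letters and not a shown binding site. Between the libraries, Myl9 had 2549 UMIs in STZ and 1608 in control mural cells, a ratio of 0.957.

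Between the libraries, 6992 genes were measured in mural cells, of which 1080 (15.4%) were at least 1.5-fold higher in STZ and 783 (11.2%) at least 1.5-fold lower. The median log2 ratio over these genes was 0.01. In all other filtered cells, which hold far more UMIs, 2.72% of 9456 measured genes were higher and 2.6% lower, and counts in the lists below are read against the mural shares. The 12 genes named in each direction were those with the 95% interval farthest from 1 among genes of sufficient level and spread over cells. They are listed by what they encode.

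Among these 12 higher genes, Spp1 and Angptl4 had the largest ratios. Spp1 (chr5:104435118-104441050, plus), which encodes the secreted matrix protein osteopontin, had 90 UMIs (138 CPM) in STZ and 4 UMIs (10.1 CPM) in control mural cells, a ratio of 13.6 (5.12 to 50.9). The ratio was 14.7 in pericyte-weighted cells alone and 14.4 with at least 20 mural UMIs. Angptl4 (chr17:33773750-33781830, minus), a secreted inhibitor of lipoprotein lipase, had 44 UMIs (67.2 CPM) in STZ and 2 UMIs (5.06 CPM) in control, a ratio of 13.3 (3.46 to 113). Both genes had low levels in all other cells, at 0.682 CPM in STZ and 0.134 CPM in control for Spp1 and at 2.43 CPM in STZ and 0.851 CPM in control for Angptl4. The STZ UMIs were spread over members, with at most 8.89% of the Spp1 UMIs and 11.4% of the Angptl4 UMIs in a single cell.

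A pair of genes of sterol synthesis was among the 12. Msmo1, the methylsterol oxidase of cholesterol synthesis, had 73 UMIs in STZ and 12 in control (112 CPM in STZ against 30.4 in control, ratio 3.67, 1.98 to 7.43). Idi1, the isomerase that makes the building blocks of isoprenoids, had 52 UMIs in STZ and 10 in control (79.5 CPM in STZ against 25.3 in control, ratio 3.14, 1.58 to 6.93). Both stood below 1 in all other cells, at 0.763 for Msmo1 and 0.671 for Idi1, and in endothelial cells, at 0.47 and 0.359. The remaining sterol genes given here were looked up after these values were seen. Hmgcs1 (58 UMIs in STZ against 18 in control, 1.94), Fdps (75 in STZ against 25 in control, 1.81), Fdft1 (1.55) and Sqle (22 in STZ against 7 in control, 1.90), enzymes of the same route, were also past 1.5-fold. Insig1 (1.21), Srebf2 (1.02), Sc5d (1.04) and Cyp51 (1.26) were not.

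Trp53inp1, a stress gene induced by p53, had 76 UMIs in STZ and 13 in control (116 CPM in STZ against 32.9 in control, ratio 3.53, 1.95 to 6.93) and a ratio of 8.55 in endothelial cells. Cebpd, a transcription factor of the acute phase response, had 259 UMIs in STZ and 64 in control (396 CPM in STZ against 162 in control, ratio 2.44, 1.85 to 3.26), and the ratio in all other cells was 0.994. Spry2, which restrains receptor tyrosine kinase signalling, had 72 UMIs in STZ and 16 in control (2.72, 1.56 to 5.00). Ctdspl2, a phosphatase, had 51 UMIs in STZ and 9 in control (3.42, 1.67 to 7.90), and the splicing factor gene Smndc1 60 UMIs in STZ and 13 in control (2.79, 1.51 to 5.53).

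Of the last 3 genes, Hmgb2 and Cd200 stood higher in other cells of the STZ library too. Hmgb2, a chromatin protein, had 167 UMIs in STZ and 44 in control mural cells (255 CPM in STZ against 111 in control, ratio 2.29), and its ratio in all other cells was 3.16. Cd200, a surface protein that dampens myeloid cells, had 254 UMIs in STZ and 73 in control (388 CPM in STZ against 185 in control, ratio 2.10, 1.61 to 2.76), with 1.94 in all other cells. Mnd1, known for meiotic recombination, had 152 UMIs in STZ and 43 in control mural cells (2.13, 1.51 to 3.07) and under 2 CPM in all other cells of both libraries.

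Among the 12 lower genes, several act on muscle and matrix. Kcnmb1, the beta subunit that tunes the large-conductance calcium-activated potassium channel of smooth muscle, had 31 UMIs (47.4 CPM) in STZ and 47 UMIs (119 CPM) in control, a ratio of 0.398 (0.244 to 0.640). Cap2, an actin-binding protein of muscle, had 17 UMIs in STZ and 44 in control (25.98 CPM in STZ against 111 in control, ratio 0.233, 0.125 to 0.416), with 0.948 in all other cells. Lama5, a laminin chain of vascular basement membrane, had 20 UMIs (30.6 CPM) in STZ and 35 (88.6 CPM) in control (0.345, 0.189 to 0.614). Ctgf, a matrix protein induced by mechanical stretch and TGF-beta, had 149 UMIs in STZ and 202 in control (228 CPM in STZ against 512 in control, ratio 0.445, 0.358 to 0.553). Ctgf depended on the members with few mural UMIs, since its ratio was 0.674 without them, and it was also lower in all other cells at 0.461.

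Rcn1 (9 UMIs in STZ against 25 in control, ratio 0.217) and Ero1l (16 in STZ against 28 in control, 0.345) encode proteins of the endoplasmic reticulum. Tdp1, which repairs topoisomerase damage, had 10 UMIs in STZ and 20 in control (0.302). Gigyf2 (18 in STZ against 31 in control, 0.350), C2cd2 (20 in STZ against 35 in control, 0.345), the mitochondrial ribosomal gene Mrps25 (20 in STZ against 32 in control, 0.377) and the peptidase gene Naalad2 (40 in STZ against 59 in control, 0.409) were also among them.

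**Figure D4:**
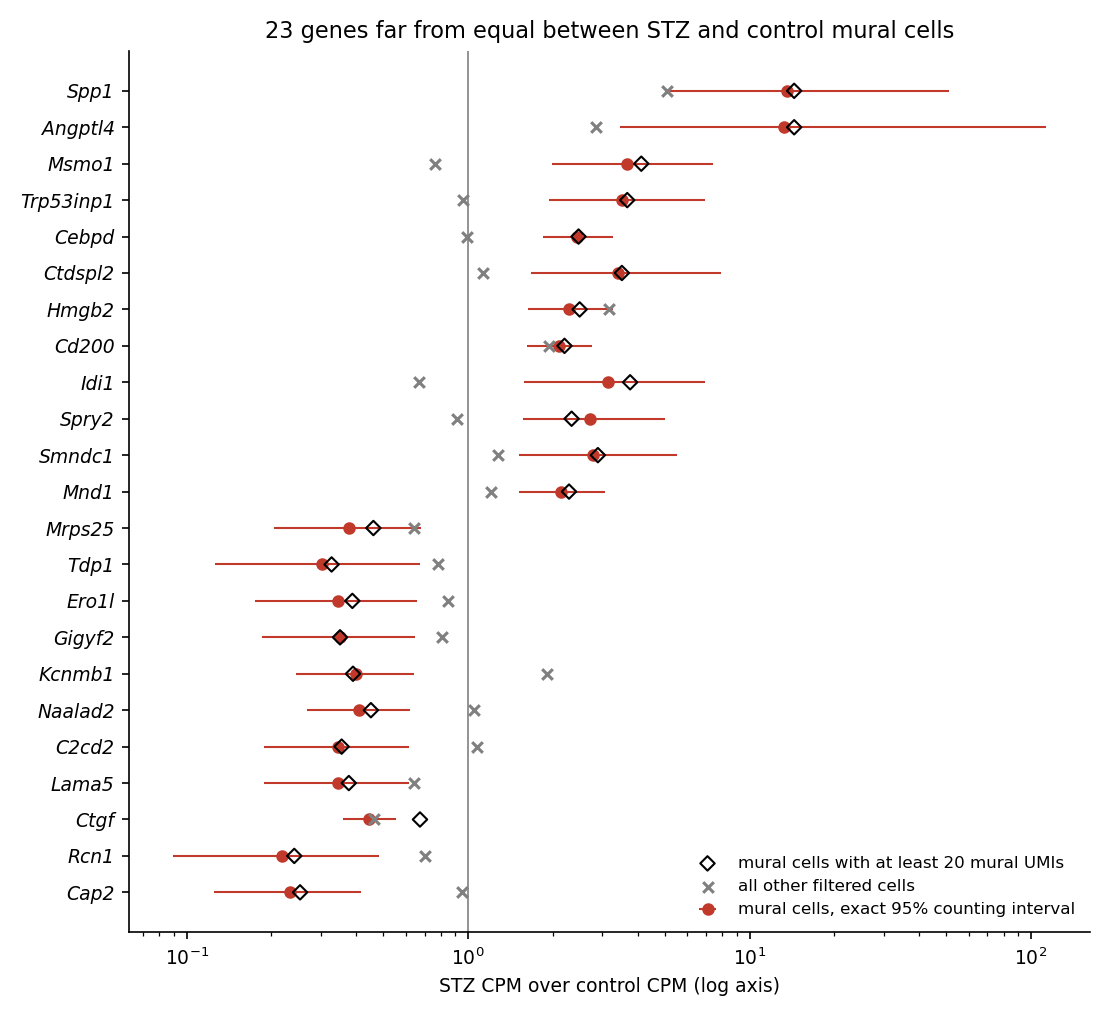
Ratio of STZ to control CPM in mural cells on a log axis for the 12 higher and 11 of the 12 lower genes, circles with 95% counting intervals. Diamonds are the same ratio in members with at least 20 mural UMIs and crosses the ratio in all other filtered cells. For Msmo1 and Idi1 the cross lies below 1 while circle and diamond lie above it, and for Ctgf the diamond, at 0.674, lies nearer 1 than the circle, at 0.445.

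The other subunit of the channel that Kcnmb1 belongs to stood on the opposite side. Kcnma1, the pore-forming subunit, had 37 UMIs (56.55 CPM) in STZ and 2 UMIs (5.06 CPM) in control mural cells, a ratio of 11.2 (2.88 to 95.6), and 8.83 with at least 20 mural UMIs. Kcnma1 is also made by neurons and stood at 395 CPM in STZ and 487 CPM in control over all other cells, and the part of their RNA in the mural value was not tested. Of 22 genes of channels and calcium handling, 18 were measured, with 1 higher (Kcnma1) and 3 lower (Kcnmb1, Itpr2 and Atp2a3) and a median log2 ratio of -0.24. Atp2a3, a calcium pump of the endoplasmic reticulum, had 66 UMIs in STZ and 70 in control (0.569, 0.4003 to 0.808), and Itpr2, a calcium release channel, had 26 in STZ and 28 in control (0.560). In this and the following lists, members named because they passed 1.5-fold were chosen after their values were seen.

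Over all members, identity and contractile genes stood near the control level. Of 28 genes of pericyte identity 26 were measured, 1 was higher (Anpep, the aminopeptidase CD13, with 39 UMIs in STZ and 14 in control, ratio 1.68) and 1 lower, and the median log2 ratio was -0.13. Of 33 contractile apparatus genes 31 were measured, 1 was higher and 4 lower (Nexn, Pgm5, Smtn and Slmap), with a median of -0.23. Nexn, an actin filament protein of muscle, had 38 UMIs in STZ and 43 in control (0.533, 0.335 to 0.845), and smoothelin (Smtn) had 36 in STZ and 34 in control (0.639, 0.389 to 1.05). Caldesmon (Cald1) had 1991 UMIs in STZ and 1357 in control, a ratio of 0.886. The 1 higher contractile gene was Ramp1, part of the receptor for the vasodilator peptide CGRP, with 39 UMIs in STZ and 13 in control (1.81, 0.946 to 3.70). In pericyte-weighted cells 5 of 25 contractile apparatus genes were lower and 0 higher (summed ratio 0.826), where 13% of all genes were lower. In contractile-weighted cells 7 of 30 were lower and 1 higher (0.814), where 14% were lower. Of the pericyte identity list, 1 of 26 was lower and 2 higher in pericyte-weighted cells (0.898). In contractile-weighted cells 4 of 19 were lower and 1 higher (0.792).

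Of 30 genes of vasoactive receptors and their regulators only 14 were measured, with 2 higher (Ramp1 and Rgs16), 1 lower (P2rx4) and a median of -0.34. Rgs16, a G protein regulator, had 28 UMIs in STZ and 7 in control (2.41).

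Growth factor pathways of mural cells showed single genes past 1.5-fold. Of 31 PDGF, TGF-beta and BMP genes 24 were measured, with 2 higher, among them Tgfbr2, and 2 lower (Pdgfra and Tgfb3), and a median of -0.23. Tgfbr2, a receptor for TGF-beta, had 39 UMIs in STZ and 13 in control (1.81). Pdgfra, a receptor of fibroblasts and astrocyte precursors, had its 6 STZ and 28 control UMIs in 2 cells of each library and 0 in members with at least 20 mural UMIs. Of 19 Notch genes 11 were measured, with 0 higher and 1 lower (Maml2).

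Of 28 angiopoietin, VEGF and related endothelial signals 19 were measured, with 3 higher and 4 lower. Angpt1, the pericyte ligand that keeps endothelium quiescent, had 48 UMIs (73.4 CPM) in STZ and 15 UMIs (38.0 CPM) in control, a ratio of 1.93 (1.06 to 3.71), and 2.09 with at least 20 mural UMIs. Angpt2, its context-dependent antagonist, had 35 UMIs in each library, a ratio of 0.604 (0.367 to 0.993). Cxcl12, a chemokine of vessel walls, had 86 UMIs in STZ and 82 in control (0.633), and Igfbp4, which binds insulin-like growth factors, 93 in STZ and 33 in control (1.70, 1.13 to 2.61). The remaining genes past 1.5-fold were Flt1 on the higher side and Vegfa and Nrp2 on the lower. The values of Vegfa and Flt1 rested on members with few mural UMIs: Vegfa had 22 UMIs in STZ and 27 in control (0.492) but 6 in STZ and 4 in control (0.981) with at least 20 mural UMIs, where the ratio of Flt1 was 1.04. The list median was -0.37 over all members and 0.02 with at least 20 mural UMIs.

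Matrix genes held the largest number of lower members among the structural lists. Of 40 genes 25 were measured, with 1 higher, 7 lower and a median of -0.03. Serpinh1, the collagen chaperone HSP47, had 106 UMIs in STZ and 118 in control (0.542, 0.413 to 0.711). Lama4, a laminin chain of vessels, had 34 UMIs in STZ and 40 in control (0.513), and Lamc3 51 in STZ and 48 in control (0.641). Col3a1, a fibrillar collagen, had 10 UMIs in STZ and 24 in control (0.251, 0.107 to 0.546), with the same UMIs in members with at least 20 mural UMIs. The others were Lama5, Lamb1 and Col8a1, and the higher gene Fn1 had 22 UMIs in STZ and 3 in control, with 50% of the STZ UMIs in a single cell. Of the more abundant matrix genes, matrix Gla protein (Mgp), an inhibitor of calcification, had 3731 UMIs in STZ and 2223 in control (1.01), Sparcl1 1884 in STZ and 829 in control (1.37, 1.26 to 1.49) and Timp3, a metalloproteinase inhibitor, 628 in STZ and 262 in control (1.45, 1.25 to 1.68). The basement membrane collagen Col4a1 had 319 UMIs in STZ and 225 in control (0.856).

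Of 26 junction and adhesion genes 21 were measured, with 0 higher, 3 lower and a median of -0.25. Vinculin (Vcl), which ties integrins to actin, had 201 UMIs in STZ and 209 in control (0.580, 0.476 to 0.708). Integrin alpha 1 (Itga1), a collagen receptor, had 395 in STZ and 370 in control (0.644, 0.558 to 0.745), and N-cadherin (Cdh2), which joins pericytes to endothelium, 105 in STZ and 96 in control (0.660). Among members with at least 20 mural UMIs 2 of 21 were lower, and the ratios of Itga1 and Cdh2 were 0.675 and 0.745.

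Metabolic lists stayed near the median of all genes. Of 39 nuclear genes of mitochondrial respiration all were measured, with 1 higher (Ndufa4) and a median of 0.04. Ndufa4 had 265 UMIs in STZ and 78 in control (2.05), and its ratio with at least 20 mural UMIs was 1.43. Of 23 glycolysis genes 19 were measured, with 3 higher (Pfkp, Slc2a1 and Pgk1), 1 lower (Pfkl) and a median of 0.21. Slc2a1, the glucose transporter GLUT1, had 42 UMIs in STZ and 15 in control, but 14 in STZ and 10 in control (0.916) with at least 20 mural UMIs, where the ratio of Pfkp was 1.102. Of 16 genes of the polyol and hexosamine routes and related glucose responses 8 were measured, with 1 higher, 0 lower and a median of 0.12. Of 26 antioxidant genes 20 were measured, with 2 higher and 2 lower. Gstm1, a glutathione transferase, had 151 UMIs in STZ and 57 in control (1.60, 1.17 to 2.21). The ratio of Gstm1 was 1.49 with at least 20 mural UMIs, where 0 of 18 antioxidant genes were higher and 3 lower.

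Metallothioneins, which bind zinc and copper, and the cold-inducible RNA-binding proteins were higher in all 5 measured genes. Mt1 (chr8:94179082-94180327, plus) had 363 UMIs (555 CPM) in STZ and 56 UMIs (142 CPM) in control mural cells, a ratio of 3.91 (2.95 to 5.28). All other cells stood higher, at 1378 CPM in STZ and 492 CPM in control, a ratio of 2.80, against 1.26 in endothelial cells. Mt2 had 51 UMIs in STZ and 6 in control (5.13, 2.20 to 14.6) and 2.29 with at least 20 mural UMIs, with 25.5% of its STZ UMIs in a single cell, and Mt3 had 32 in STZ and 9 in control (2.15). Cirbp had 410 UMIs (627 CPM) in STZ and 56 UMIs (142 CPM) in control (4.42, 3.34 to 5.95), with 3.66 in endothelial and 3.12 in all other cells. Rbm3 had 347 UMIs in STZ and 118 in control (1.77, 1.44 to 2.21).

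Chaperones of the heat shock response, which keep proteins folded in the cytosol, stood on the other side. Of 22 genes 21 were measured, with 0 higher, 9 lower and a median of -0.43, against 11.2% lower over all genes. Hspa8, the constitutive Hsp70, had 365 UMIs in STZ and 437 in control (558 CPM in STZ against 1107 in control, ratio 0.504). Dnaja1, its partner, had 136 UMIs in STZ and 157 in control (0.523), Hspb1, a small heat shock protein of smooth muscle, 335 in STZ and 338 in control (0.598), and Hsp90ab1 521 in STZ and 511 in control (0.615). The list summed to 4435 CPM in STZ and 6391 CPM in control mural cells (0.694, 0.658 to 0.732). With at least 20 mural UMIs 8 were lower and the median was -0.51, and in all other cells 4 of 20 were lower with a median of -0.35. Of 22 genes of the unfolded protein response 18 were measured, with 0 higher and 3 lower (Calr, Edem1 and Sel1l), where Calr had 130 UMIs in STZ and 126 in control (0.623).

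Immediate early genes had a median of 0.00 over all mural cells, with 2 higher and 3 lower of 23 measured. Zfp36, which marks cytokine mRNAs for decay, had 340 UMIs in STZ and 111 in control (1.85, 1.49 to 2.31), and Klf2, a transcription factor responsive to flow, 96 in STZ and 27 in control (2.15, 1.39 to 3.42). The ranges of the split stood on opposite sides of this median. In pericyte-weighted cells 6 of 21 were higher and 2 lower (median 0.30), where 16.1% of all genes were higher and 13% lower. In contractile-weighted cells 2 of 23 were higher and 10 lower (median -0.49), where 17.4% were higher and 14% lower. With at least 20 mural UMIs the medians were 0.32 and -0.41. Cebpd followed the same order, with 218 UMIs in STZ against 38 in control pericyte-weighted cells (3.75, 2.65 to 5.44) and 37 in STZ against 25 in control contractile-weighted cells (0.755, 0.443 to 1.31). No test of this difference could be made.

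Interferon genes were sparse in mural cells. Of 29 genes 17 were measured, with 5 higher (among them H2-T23, Irf9, Tap2 and Isg15), 0 lower and a median of 0.21. Of 16 measured with at least 20 mural UMIs 4 were higher, and the ratio of Irf9 was 1.40. Isg15, a ubiquitin-like protein, had 26 UMIs in STZ and 7 in control (2.24). Of 27 genes of chemokines and the acute phase 14 were measured, with 1 higher (Cebpd) and 1 lower (Cxcl12). Of 23 p53 and cell cycle arrest genes 15 were measured, with 3 higher and 0 lower. Cdkn1a, the cell cycle inhibitor p21, had 117 UMIs in STZ and 40 in control (1.77, 1.22 to 2.60), and Cdkn1c, the inhibitor p57, 261 in STZ and 89 in control (1.77, 1.39 to 2.28). Both were also higher in all other cells, at 2.48 for Cdkn1a and 1.498 for Cdkn1c.

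The circadian clock list stood out in number. The clock is a loop in which CLOCK and ARNTL drive the Per, Cry and Nr1d genes through E-boxes, and these repress their own drivers, while Dbp, Hlf and Tef act on D-boxes. Of 17 genes 14 were measured in mural cells, with 11 higher, 0 lower and a median log2 ratio of 0.73, against 15.4% higher over all genes. The drivers Clock (63 UMIs in STZ, 47 in control, ratio 0.809) and Arntl (20 in STZ and 11 in control, 1.097) were not among the 11, nor was Bhlhe40 (1.12). The hour at which the mice were killed is not given in the sources used here, and with 1 library per group it cannot be told apart from the treatment.

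Repressors of the loop had higher values in STZ, most of them at few UMIs. Per2 had 23 UMIs in STZ and 2 in control (6.94, 1.72 to 60.7), Per3 46 in STZ and 17 in control (1.63, 0.919 to 3.04) and Per1 22 in STZ and 8 in control (1.66). Nr1d1 and Nr1d2, which encode the REV-ERB receptors, had 66 UMIs in STZ and 20 in control (1.99, 1.19 to 3.47) and 56 UMIs in STZ and 14 in control (2.41, 1.33 to 4.70). Cry1 had 20 UMIs in STZ and 8 in control (1.51) and Cry2 35 in STZ and 13 in control (1.62). Bhlhe41, a further repressor, had 38 UMIs in STZ and 9 in control (2.55, 1.21 to 5.99), and 66.7% of the control UMIs were in a single cell. The D-box factors stood likewise, with Hlf at 102 UMIs in STZ and 35 in control (1.76, 1.19 to 2.66), Dbp at 60 in STZ and 22 in control (1.65, 0.995 to 2.82) and Tef at 40 in STZ and 14 in control (1.72). The intervals of Per3 and Dbp include 1. Per1, Cry1, Cry2 and Tef, given without an interval, have fewer UMIs than Per3 in both libraries.

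Endothelial cells gave 6 higher and 1 lower of 9 measured circadian genes (median 0.80), where 16.7% of all genes were higher and 14.4% lower. All other cells gave 0 higher and 0 lower of 16 (median 0.01). Summed, the list stood at 980 CPM in STZ and 631 CPM in control mural cells (1.55, 1.34 to 1.81) and at 1963 CPM in STZ and 2026 CPM in control over all other cells (0.969). With at least 20 mural UMIs 10 of 13 were higher (median 0.78), where 13.4% of all genes were. Rod genes, which lay on the same side in mural cells (12 of 14 higher, summed ratio 2.04), had 0 of 14 higher in all other cells, and 9 of 14 higher with at least 20 mural UMIs (summed ratio 1.62). The cone list had 7 of 7 measured genes higher and the bipolar list 7 of 7, and 2 of 7 and 4 of 4 with at least 20 mural UMIs. The part of neuronal RNA in the circadian values was not tested. The count depended on who was a member: with cells of 3 or 4 mural UMIs added, 5 of 15 were higher.

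The promoters of Per3 and Tef are shown because they hold the motifs through which the clock acts. Both sequences are from RefSeq on GRCm38.p6, 250 bases long, in the direction of transcription, and hold no base of an annotated exon. Per3 lies at chr4:151044666-151044915 on the minus strand, and capitals mark 2 D-boxes (TTATGTAA) whose first bases lie 205 and 158 bases before the start. The Tef sequence, at chr15:81811164-81811413 on the plus strand, belongs to the later of the gene's 2 starts in the table, and capitals mark an E-box (CACGTG) 138 bases before it.
Per3: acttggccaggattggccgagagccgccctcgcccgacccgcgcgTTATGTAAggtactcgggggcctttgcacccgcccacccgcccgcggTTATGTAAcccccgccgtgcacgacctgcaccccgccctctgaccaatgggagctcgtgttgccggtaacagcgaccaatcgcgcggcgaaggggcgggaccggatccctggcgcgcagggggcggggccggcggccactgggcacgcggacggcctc
Tef: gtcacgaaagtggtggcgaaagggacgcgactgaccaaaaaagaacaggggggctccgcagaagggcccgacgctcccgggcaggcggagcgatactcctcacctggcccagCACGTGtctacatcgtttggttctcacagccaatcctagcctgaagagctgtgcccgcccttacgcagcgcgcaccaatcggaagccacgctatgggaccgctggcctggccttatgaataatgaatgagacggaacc
Of 17 circadian genes 15 matched the promoter table, with 20 promoters. A D-box, as TTATGTAA or TTACGTAA on either strand, was in the promoter of 1 gene (Per3), and an E-box CACGTG was in those of 5 (Bhlhe41, Ciart, Cry1, Per1 and Tef). Of all 32851 promoters 0.931% held such a D-box and 6.02% the E-box. These matches describe letters in a window of 250 bases and say nothing on binding in these cells.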

How the data were processed

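The deposited table holds raw UMI counts per gene and cell for 17087 genes and 19562 cells of 2 libraries, and the library of each cell was read from its column name. Per the submitters' processing notes, the authors used Cell Ranger 3.0.1, Seurat 3.0 and the mouse build mm10, and the aligner's settings and the annotation are not given in the sources used here. No gene positions come from the table; those printed are from GENCODE on the same build.

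Mural cells were taken by the stated limits on UMIs, and counts were summed per library and scaled to CPM. Ratios carry exact conditional binomial intervals and shares carry Clopper-Pearson intervals, at 95%. A fold against 0 UMIs uses a floor of 3 counts over the group. The calculation was tested on simulated data. With 1 library per group no test was made.

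Singly named genes had at least 30 UMIs in both libraries together, 50 CPM in the higher library, UMIs in at least 10% of its mural cells, no cell with over 20% of its UMIs, and a level no lower than in all other cells. The 12 with the interval farthest from 1 in each direction were taken. Some genes that the rules select are not reported here. The 15 identity genes had the highest mural level relative to all other cells in the library where that was lower. List members named are among the 6 most abundant or were chosen after their values were seen. The members, the lists and the rules were chosen with earlier results of these data known. Of 642 list genes 623 were in the table. Alternatives left cells in or out by UMIs, mt- share, neuronal, endothelial or fibroblast RNA, thinned cells to 800 UMIs, or changed the filter on genes. Counts of genes that share reads or overlap, such as the H2 and Mt genes, depend on how the authors assigned reads. Python 3.11.15 with numpy 2.4.6, scipy 1.17.1 and pandas 2.3.3 was used.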

Additional observations from a re-analysis of the deposited data

Results flagged for a closer look

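These values are given because STZ stood above control in pericyte-weighted cells and below it in contractile-weighted cells. The differences between the ranges were not tested, since each library gives 1 value per range, and they were chosen from many genes and lists after their values were seen.

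The median log2 ratio of the immediate early list was 0.30 in pericyte-weighted and -0.49 in contractile-weighted cells. For the list of chemokines and acute phase genes the medians were 0.41 and -0.40, over unlike sets of genes. In pericyte-weighted cells 14 of its genes were measured, with 4 higher and 1 lower. In contractile-weighted cells only 7 were measured, with 0 higher and 2 lower. Dusp1, a phosphatase that switches off MAP kinases, had 253 UMIs in STZ and 105 in control pericyte-weighted cells (log2 ratio 0.66) and 143 in STZ and 157 in control contractile-weighted cells (-1.11). Socs3, which restrains cytokine signalling, had 47 UMIs in STZ and 15 in control pericyte-weighted cells (1.03) and 51 in STZ and 43 in control contractile-weighted cells (-0.72). Txnip, a glucose-responsive inhibitor of thioredoxin, had 57 UMIs in STZ and 23 in control pericyte-weighted cells (0.70) and 8 in STZ and 28 in control contractile-weighted cells (-2.78), so that its ratio of 0.781 over all mural cells covers values on both sides. The control library held only 20 contractile-weighted cells.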

How the results depend on the processing

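Of 22 settings, those that changed only the cut of the split or the denominator of the share gave no gene values or list medians. In the others, 2552 of 2696 gene values stayed within their 95% counting interval, 142 moved beyond it and 2 turned. Turned means past 1.5-fold under the rule and of the other sign under the setting, and sign changes of other genes were not counted. The 2 were Itga1, to a log2 ratio of 0.078 in cells thinned to 800 UMIs, and Per3, to -0.0012 with members of at least 3 mural UMIs. That Per3 value still lay within its interval. Of 418 list medians 3 moved, which for a median meant a shift of at least 1.5-fold. A smaller shift could change the sign of a median near 0. The pericyte identity median, -0.13, was 0.12 with members of at least 3 mural UMIs. The log2 ratio of the share of mural cells, 0.57 among filtered cells, was 0.045 among mural and endothelial cells. The genes higher in STZ mural cells numbered 1080, and 687 with at most 10% mt- UMIs, 257 thinned, 2542 with no filter on low values and 326 at 50 CPM or more. The genes lower in STZ mural cells numbered 783, and 272 thinned, 2287 unfiltered and 234 at 50 CPM or more. Circadian genes higher, 11 of 14, were 7 of 9 with at most 10% mt- UMIs, 5 of 15 with at least 3 mural UMIs, 1 of 1 thinned and 6 of 8 at 50 CPM or more. Heat shock genes lower, 9 of 21, were 4 of 12 thinned, and metallothioneins higher, 3 of 3, were 1 of 1 both with at most 10% mt- UMIs and thinned. Thinning and the filters on level change how many genes are measured, and the cause of the other differences was not tested. Depth limits genes with few UMIs: the interval of Per3, from 0.919 to 3.04, spans more than the 1.5-fold at which a gene was counted. No paired analysis was possible because each group is 1 library with no replicate.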
